A study of Mus musculus with 18 samples.

Results

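The genes described here encode secreted antagonists of bone morphogenetic proteins (BMPs), the follistatins and the activin subunit inhibin beta-A. They were chosen by name and comprise 9 of the 49184 genes to which the transcripts of the series were assigned: Grem1, Nog, Chrd, Chrdl1 and Chrdl2 (gremlin 1, noggin, chordin and the chordin-like proteins), Fst, Fstl1 and Fstl3 (follistatin and its relatives) and Inhba. All 9 passed the filter on low counts.

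BMPs and activins are secreted dimers of the transforming growth factor beta superfamily, and each signals through a complex of type I and type II receptors. BMPs mainly activate Smad1, Smad5 and Smad9, and activins Smad2 and Smad3. Noggin, gremlin and chordin bind BMPs outside the cell and keep them from their receptors, and chordin loses that hold when it is cleaved by the tolloid proteinases Bmp1 and Tll1. Follistatin holds activin in the same way, and activin A is a dimer of the product of Inhba. In cartilage, BMPs and the related growth and differentiation factors take part in chondrocyte differentiation and joint formation.

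The study asked how knee cartilage responds early to rupture of the anterior cruciate ligament (ACL), made without surgery by a single 12 N load on the right knee of male C57Bl/6J mice aged 12 weeks. RNA-Seq of cartilage caps from the femoral condyles gave 18 libraries. The naïve group (n = 6), labelled as day 7, came from mice that were not loaded, and both day 1 and day 7 had an injured group (n = 3 each) from right knees and a contralateral group (n = 3 each) from the left knees of loaded mice, so that the latter carry any systemic effect of loading. The genotype label is C57bl6 throughout, with no engineered allele named. Each library was a pool: the study's scheme gives 2 mice per library at day 1, 4 at day 7 and 2 knees per naïve library, whereas the series description speaks of 4 mice per sample. With 6 naïve mice in that scheme and left and right knees pooled apart, naïve libraries share mice, and the injured and contralateral libraries of a day come from the same mice. The labels do not say which libraries do so. All libraries were therefore treated as independent although they are not, and the p-values measure the spread between libraries and not between mice.

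Totals of estimated counts ranged from 16074762 to 41794005 per library, with a median of 25465706. Levels of 1 gene between libraries are given as CPM, counts relative to the library's total after scaling by the trimmed mean of M-values (TMM). Where genes are compared with each other, TPM is used, which also divides by transcript length. Genes were called higher or lower at FDR≤0.05 and ≥1.5-fold in the quasi-likelihood test of edgeR, with the Benjamini-Hochberg false discovery rate (FDR) taken over all genes tested. Log2 fold changes carry their standard error (SE).

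The tissue is labelled cartilage and the cell type chondrocyte. All 14 chondrocyte markers were detected in each library, and their summed level ran from 4775 to 8815 CPM in naïve libraries and from 7808 to 9436 CPM at day 7 after injury. Col2a1 held 2595 to 4989 CPM and 3611 to 4116 CPM of these sums. At day 7 after injury 3 of the 14 markers were called higher than in naïve libraries and 2 lower, where 10.4% and 6.11% of all genes were. Other cells were present too, since the erythroid markers summed to between 30927 and 41443 CPM and the osteoblast and osteocyte markers, led by Col1a1, to between 9044 and 17463 CPM in the naïve libraries. No matched marker in any of the 13 lists was at 0 in any library. Replicate 1 of the day 7 contralateral group stood apart: its 10 most abundant genes held 42.5% of its counts (16.6% to 29.8% in the other libraries), and its erythroid and chondrocyte markers summed to 64660 and 14695 CPM. In this replicate Col2a1 (10448 CPM), Col9a1, Col9a2, Col9a3, Col11a2 and Matn3 were at their highest of the 18 libraries. Hapln1, Chad and Prg4, of the same chondrocyte list, were at their lowest, at 106, 96.9 and 240 CPM. Results against this group are also given without that library for the pathway lists and for those of the 9 genes whose call changed.

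At day 7 after rupture 4 of the 9 genes were higher than in naïve libraries, and none was lower. These were Fstl1, Inhba, Chrd and Fstl3, with Fstl1 rising 6.56-fold and the other three between 2.39-fold and 2.92-fold. Among the 21129 genes tested, 10.4% (2207) rose and 6.11% (1291) fell. With scaling by library totals alone the split was 1268 higher and 4556 lower, and the median of all genes moved from -0.04 to -0.35. Fstl1 lay 2.75 above that median with TMM and 2.74 above it with library totals. The 9 genes had a median log2 fold change of 0.53. All injured libraries lay above all naïve ones for 5 of the 9 genes, the called ones and Fst, where 17.4% of all genes did, and below them for none, where 10.8% of all genes did. In bulk RNA a change in the number of cells of a type and a change in RNA per cell cannot be told apart.

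**Figure D1:**
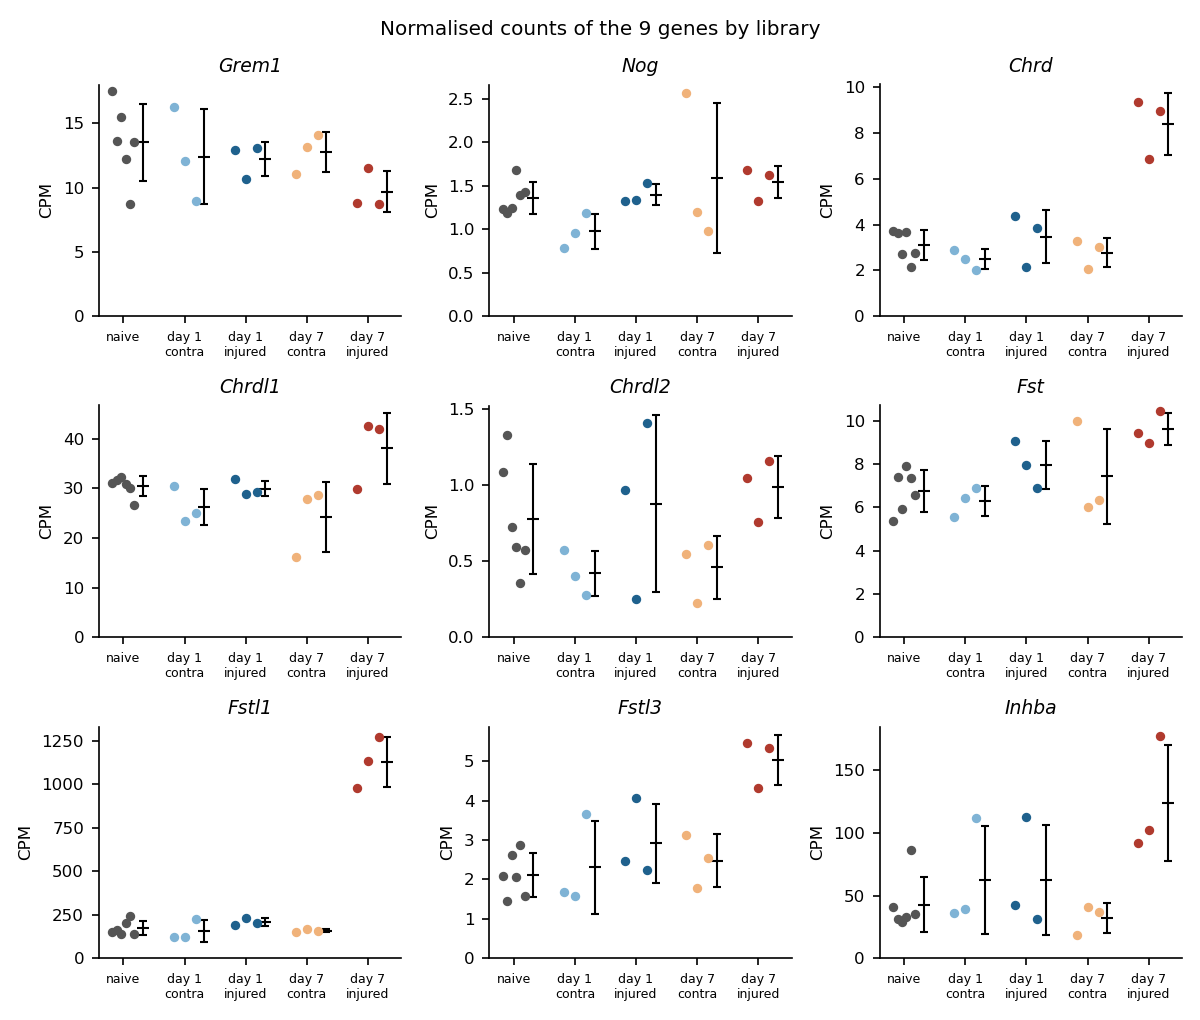
CPM of each of the 9 genes (linear axis from 0) in the 18 libraries by group; points are libraries, and the black bar is the group mean with its SD (n = 6 naïve, n = 3 in each other group). The day 7 injured libraries stand above every other library for Fstl1, Chrd and Fstl3, whereas for Inhba single libraries of other groups reach 86.7 to 112 CPM.

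The promoter sequences of the 4 genes that rose are shown so that their base composition and motifs can be read beside these values. The RefSeq promoter table used here (GRCm38.p6) matched 5 of the 9 genes, Grem1, Chrd, Fstl1, Fstl3 and Inhba. The 250 bases before the RefSeq start were searched on both strands for GGCGCC, a GC-rich element recognised by BMP-activated Smads, for the palindromic Smad box GTCTAGAC, for the AP-1 element TGANTCA and for the TEAD element GGAATG. Each sequence is given 5′ to 3′ up to the base before the first annotated transcript. Capitals mark GGCGCC, the only one of these motifs found. Chrd lies at chr16:20732877-20733126 (plus strand), Fstl1 at chr16:37776805-37776872 (plus strand, 68 bases, because an annotated transcript starts within the window), Fstl3 at chr10:79777024-79777271 (plus strand) and Inhba at chr13:16011601-16011850 (plus strand).
Chrd: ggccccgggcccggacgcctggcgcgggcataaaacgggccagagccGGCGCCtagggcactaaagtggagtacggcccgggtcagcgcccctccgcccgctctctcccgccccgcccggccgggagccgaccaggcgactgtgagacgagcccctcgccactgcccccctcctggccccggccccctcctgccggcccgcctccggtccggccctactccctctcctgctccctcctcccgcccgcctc
Fstl1: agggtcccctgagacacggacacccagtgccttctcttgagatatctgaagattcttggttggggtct
Fstl3: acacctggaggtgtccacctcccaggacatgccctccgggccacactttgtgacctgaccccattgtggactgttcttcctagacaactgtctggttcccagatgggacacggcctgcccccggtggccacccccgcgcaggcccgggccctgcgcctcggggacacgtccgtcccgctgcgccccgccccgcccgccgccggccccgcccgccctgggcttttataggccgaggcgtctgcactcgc
Inhba: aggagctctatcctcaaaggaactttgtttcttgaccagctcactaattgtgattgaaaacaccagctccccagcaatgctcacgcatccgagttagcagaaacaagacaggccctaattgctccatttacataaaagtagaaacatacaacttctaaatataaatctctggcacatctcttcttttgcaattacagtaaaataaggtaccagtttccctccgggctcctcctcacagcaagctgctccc

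GGCGCC was present once before Chrd, 203 bases upstream of its RefSeq start, and once before Grem1, 78 bases upstream, and 9.59% of the 32851 promoter windows in that table held it. GTCTAGAC, TGANTCA and GGAATG, which 0.167%, 6.75% and 12.6% of the windows held, were in none of the 5. The Inhba window was the poorest in G and C of the printed ones that span about 250 bases, at 43.2%, against 71.4% for Fstl3 and 78% for Chrd. The median over all windows was 52.4%. A match of these letters is a description and not evidence of binding.

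Of the BMP antagonists, Chrd (chr16:20733127-20742384, GRCm38, plus strand) encodes chordin. Its level was 9.35, 6.84 and 8.93 CPM in day 7 injured libraries 1 to 3 and 3.27, 2.05 and 3.01 CPM in the day 7 contralateral libraries. In the naïve libraries it ran from 2.15 to 3.70 CPM with a median of 3.19 CPM. Every injured library was thus above every control. Chrd rose by a log2 fold change of 1.46 against naïve (SE 0.21, 2.75-fold, FDR 0.000103) and of 1.60 against contralateral libraries (SE 0.27, 3.04-fold, FDR 0.000398) in edgeR's quasi-likelihood test. These are low levels, resting on 54 to 105 counts per naïve library and 108 to 206 counts per injured one. Chrd overlaps Thpo on the opposite strand, whose level was 0.18 to 0.66 CPM in naïve libraries and 0.19 to 0.42 CPM in day 7 injured ones.

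Chrdl1 (chrX:143285674-143394262, minus strand) encodes a chordin-like BMP antagonist and was the most abundant of the 5 BMP antagonists among the 9 genes per transcript length in naïve libraries. It measured 29.9, 42.5 and 41.9 CPM in the day 7 injured libraries, 16.2, 27.9 and 28.8 CPM in the contralateral ones and 26.6 to 32.3 CPM, with a median of 31.0 CPM, in the naïve ones. Libraries 2 and 3 of the injured group were higher than every naïve one, and library 1 lay among them. Against the contralateral group Chrdl1 rose by a log2 fold change of 0.64 (SE 0.18, FDR 0.0164, edgeR). Without day 7 contralateral replicate 1 the difference was 0.45, under 1.5-fold, and without injured replicate 2 or 3 it was 0.57 (FDR 0.0643) or 0.56 (FDR 0.0772). Against naïve the log2 fold change was 0.34 (SE 0.11, FDR 0.0294), also under 1.5-fold.

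Chrdl2 (chr7:100006172-100034728, plus strand), another chordin-like antagonist, was near the lower limit of detection with 5 to 34 counts per library. It measured 1.04, 0.76 and 1.16 CPM at day 7 after injury, 0.55, 0.22 and 0.61 CPM in contralateral and 0.36 to 1.33 CPM (median 0.66 CPM) in naïve libraries. The injured libraries were above the contralateral ones and within the naïve range. The log2 fold changes were 1.11 against contralateral (SE 0.57, FDR 0.194) and 0.43 against naïve (SE 0.45, FDR 0.501), and with these errors neither direction was resolved.

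Grem1 (chr2:113746164-113758646, minus strand) encodes gremlin 1, which binds BMP dimers. Its level was 8.76, 11.5 and 8.74 CPM at day 7 after injury, 11.1, 13.1 and 14.1 CPM in contralateral libraries and 8.75 to 17.5 CPM (median 13.6 CPM) in naïve libraries. The injured libraries filled the lower end of the naïve range. The log2 fold change was -0.47 against naïve (SE 0.20, FDR 0.0989) and -0.41 against contralateral (SE 0.23, FDR 0.243), and was not called. With scaling by library totals alone, which lowered the median of all genes to -0.35, Grem1 was called lower at -0.78 (FDR 0.00802); relative to the median of all genes it was -0.43 under either scaling.

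Nog (chr11:89300638-89302332, minus strand) has a single annotated transcript and encodes noggin. It measured 1.68, 1.33 and 1.62 CPM at day 7 after injury, 2.57, 1.20 and 0.98 CPM in contralateral libraries and 1.19 to 1.68 CPM (median 1.32 CPM) in naïve ones, from 18 to 51 counts per library over all groups. The highest value of all 18 libraries was that of day 7 contralateral replicate 1. The log2 fold change was 0.20 against naïve (SE 0.18, FDR 0.436) and 0.04 against contralateral (SE 0.29, FDR 0.953), and the latter ran from -0.26 to 0.53 when single libraries were left out.

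Among the follistatins, Fstl1 (chr16:37776873-37836514, plus strand) showed the largest change of the 9 genes at day 7. It encodes a secreted glycoprotein with a follistatin-like domain. Its level was 979, 1132 and 1269 CPM in the day 7 injured libraries. The contralateral libraries held 152, 169 and 154 CPM, and the naïve ones 139 to 244 CPM with a median of 157 CPM. The lowest injured library was thus 4.00 times the highest naïve one. Fstl1 rose by a log2 fold change of 2.71 against naïve (SE 0.21, 6.56-fold, FDR 1.75e-07) and of 2.83 against contralateral (SE 0.25, 7.11-fold, FDR 5.00e-07) in edgeR's quasi-likelihood test. It remained called in both comparisons under all alternatives run, with log2 fold changes from 2.39 to 2.84 against naïve and from 2.64 to 2.92 against contralateral libraries.

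Per transcript length Fstl1 was also the most abundant of the 9 genes in every group. Its mean was 25.5 TPM (SD 6.89, n = 6) in naïve and 132 TPM (SD 31.2, n = 3) in day 7 injured libraries. Ranked by mean TPM among 21918 protein-coding genes, Fstl1 was number 1277 in the naïve and number 211 in the day 7 injured group. It accounted for 56.9% to 67.4% of the summed TPM of the 9 genes in naïve libraries and for 83.0%, 85.6% and 85.9% in injured libraries 3, 2 and 1. The transcript Fstl1-201 held 91.1% to 97.6% of the gene's TPM in naïve libraries and 94.4% to 99.2% in day 7 injured ones, and in 1 day 7 contralateral library it held 60.4%.

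The second gene of the group, Fst (chr13:114452290-114458951, minus strand), encodes follistatin itself. It measured 9.45, 9.0 and 10.5 CPM at day 7 after injury, 9.98, 6.02 and 6.35 CPM in contralateral libraries and 5.38 to 7.91 CPM (median 6.96 CPM) in naïve libraries. All injured libraries were above all naïve ones, and contralateral replicate 1 lay among the injured ones. The log2 fold change of 0.53 against naïve (SE 0.13, 1.44-fold, FDR 0.00797, edgeR) was under the fold limit, and that of 0.39 against contralateral (SE 0.19, FDR 0.174) was not called. Fst was called against naïve when only its protein-coding transcripts were counted (0.59, FDR 0.0101), and against contralateral without contralateral replicate 1 (0.66, FDR 0.0135). The retained-intron transcript Fst-203 held 0% to 46.8% of the gene's TPM in naïve libraries and 0%, 0% and 8.25% in the injured ones, so that the split among transcripts varied widely at these counts.

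Fstl3 (chr10:79777272-79782630, plus strand) encodes a follistatin-like protein that binds activins and myostatin. Its level was 5.45, 4.31 and 5.32 CPM at day 7 after injury, 3.12, 1.78 and 2.53 CPM in contralateral and 1.46 to 2.86 CPM (median 2.07 CPM) in naïve libraries. No control library reached the injured ones in either comparison. Fstl3 rose by a log2 fold change of 1.26 against naïve (SE 0.28, 2.39-fold, FDR 0.00350) and of 1.04 against contralateral (SE 0.34, 2.06-fold, FDR 0.0397) in edgeR's test. The call against contralateral was lost on leaving out contralateral replicate 2 or 3 or injured replicate 1, 2 or 3, with log2 fold changes from 0.83 to 1.14 and FDRs from 0.0568 to 0.140. The last exon of Fstl3 overlaps that of Prss57 on the opposite strand, which measured 14.4 to 25.5 CPM in naïve and 13 to 18.3 CPM in day 7 injured libraries. Whether the counting used strand is not given in the sources used here, so that the level of Fstl3 is uncertain.

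Inhba (chr13:16011851-16031621, plus strand), which encodes the subunit of activin A, is the ligand among the 9 genes. It measured 92.1, 102 and 177 CPM in day 7 injured libraries 1, 2 and 3, against 18.9, 40.7 and 37.2 CPM in the contralateral ones. The naïve libraries held 29.3 to 86.7 CPM with a median of 34.4 CPM. The groups did not overlap, although naïve replicate 5, at 86.7 CPM, came near injured replicate 1. Inhba rose by a log2 fold change of 1.54 against naïve (SE 0.44, 2.92-fold, FDR 0.0168) and of 1.93 against contralateral (SE 0.54, 3.82-fold, FDR 0.0179) in edgeR's test. The first call was lost without injured replicate 3 (1.20, FDR 0.110), and the second without that replicate (1.58, FDR 0.0971) or without contralateral replicate 1 (1.69, FDR 0.0702). The longer transcript Inhba-201 held 52.2% to 71.4% of the gene's TPM in naïve and 54.0% to 65.1% in injured libraries.

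Against the day 7 contralateral libraries, 5 of the 9 genes were higher, namely Fstl1, Inhba, Chrd, Fstl3 and Chrdl1, and none was lower. Of the 21262 genes tested, 9.33% were called higher. Over all genes 1984 rose and 686 fell, or 1435 and 1305 with library totals alone and 2030 and 434 without contralateral replicate 1. The injured libraries lay above the contralateral ones for 6 of the 9 genes, against 18.6% of all genes. Both comparisons share the injured libraries. Leaving out any single library of these groups lost at least 1 of the 5 calls. The stricter FDR limit and the length offset also called fewer of the 9 genes. Without contralateral replicate 1 the calls for Inhba and Chrdl1 were lost and that for Fst was gained, as given above.

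**Figure D2:**
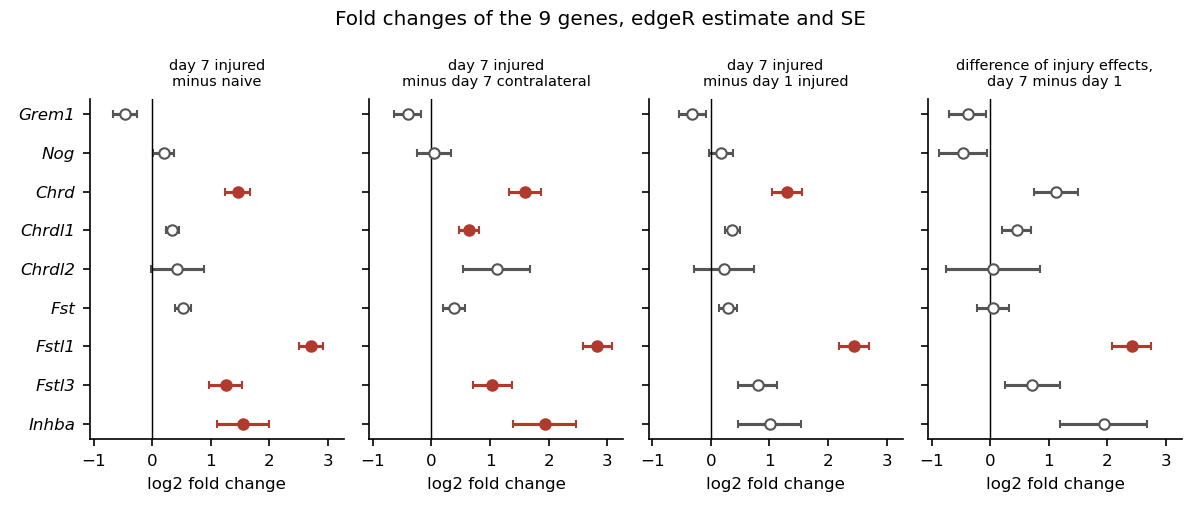
Log2 fold change (horizontal axis) of the 9 genes in 4 comparisons, as edgeR's estimate with 1 SE; filled red points were called (FDR≤0.05, ≥1.5-fold) and open points were not. Fstl1 is called in all 4 panels and Chrd in the first 3.

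Per transcript length, Fstl1 was followed in the naïve libraries (n = 6 for each mean) by Chrdl1 at 5.30 TPM (SD 0.72) and Inhba at 5.18 TPM (SD 3.14). Fst, at 2.11 TPM (SD 0.47), and Grem1, at 1.73 TPM (SD 0.45), came next. Fstl3 at 0.69 TPM (SD 0.21), Chrd at 0.58 TPM (SD 0.09), Nog at 0.46 TPM (SD 0.08) and Chrdl2 at 0.30 TPM (SD 0.14) were the least abundant. Fstl1 and Chrdl1, and Grem1 and Fstl3, differed by more than the sum of their SDs, and the other neighbours in this order by less. At day 7 after injury Inhba, at 12.4 TPM (SD 6.10), stood above Chrdl1, at 5.25 TPM (SD 1.62), and Chrd, at 1.29 TPM (SD 0.30), and Fstl3, at 1.20 TPM (SD 0.21), were above Grem1, at 1.00 TPM (SD 0.22). Among these, Inhba and Chrdl1 differed by less than the sum of their SDs, and so did Chrd, Fstl3 and Grem1.

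The ratio of Inhba to Fst on the TPM scale was 3.55, 5.40 and 6.90 in the day 7 injured libraries. It ran from 1.60 to 3.75 in naïve libraries, was 0.62, 3.04 and 2.25 in the day 7 contralateral ones and reached 7.25 in day 1 contralateral replicate 3. The ratio was thus high in the injured group but overlapped with other groups. It compares transcripts and not proteins.

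**Figure D3:**
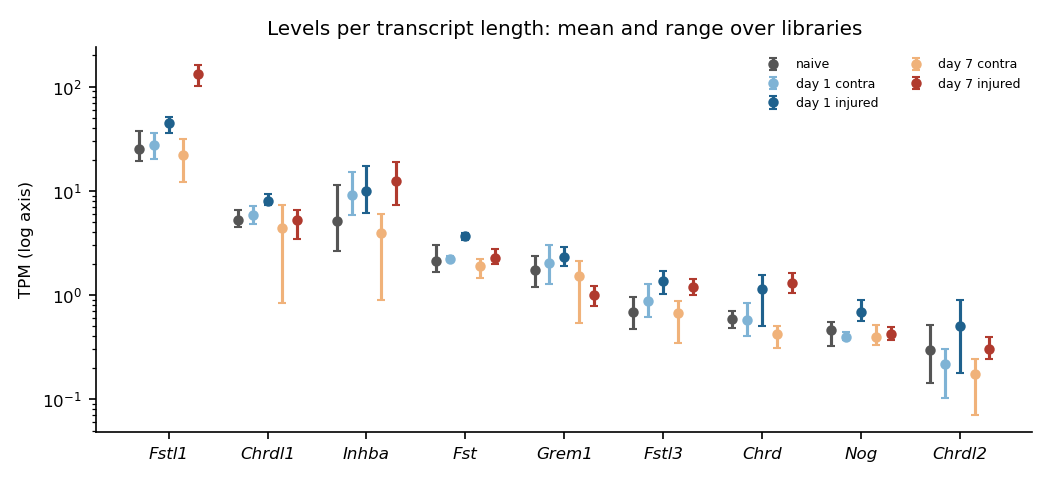
Mean TPM (log axis) of the 9 genes in the 5 groups, ordered by the naïve mean; bars span the lowest and highest library of a group. Fstl1 is the most abundant in every group, from 22.3 TPM in day 7 contralateral to 132 TPM in day 7 injured libraries.

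At day 1 none of the 9 genes was called between injured and control knees. EdgeR's quasi-likelihood test called 0% of the 21129 genes for day 1 injured against naïve and 0% against day 1 contralateral libraries, with lowest FDRs of 0.165 and 0.755. At an unadjusted p under 0.05 there were 959 and 1383 genes, limma-voom called 0 in both and DESeq2 called 15 and 0. Fstl1 measured 192, 234 and 202 CPM in the day 1 injured and 124, 120 and 227 CPM in the day 1 contralateral libraries, a log2 fold change of 0.41 (SE 0.25). Chrd, Fstl3 and Inhba had log2 fold changes of 0.48 (SE 0.26), 0.32 (SE 0.33) and -0.01 (SE 0.53) in the same comparison.

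For noggin the day 1 injured libraries, at 1.32, 1.34 and 1.53 CPM, lay above the contralateral ones, at 0.79, 0.96 and 1.19 CPM, as they did for 5.09% of all genes tested. The log2 fold change was 0.49 (SE 0.20), with an unadjusted p of 0.0295 and an FDR of 0.755 in edgeR's test across all genes. Follistatin showed 0.34 (SE 0.16, FDR 0.755) with overlapping groups. No gene was called between either contralateral group and naïve in edgeR's test: 0% were called at day 7 (lowest FDR 0.248) and 0% at day 1 (lowest FDR 1.00). At an unadjusted p under 0.05 there were 3220 and 554 genes, DESeq2 called 8 and 2 and limma-voom none.

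Between day 1 and day 7 after injury, Fstl1 and Chrd rose, 2 of the 9 genes, where 9.04% of the genes tested were called higher. Over all genes 1910 rose and 1347 fell, or 793 and 6042 with library totals alone, which also called Grem1 lower (-0.77). Their log2 fold changes were 2.45 (SE 0.26, FDR 1.24e-05) and 1.30 (SE 0.25, FDR 0.00196) in edgeR's test. In CPM the day 7 injured libraries lay above the day 1 injured ones for Fstl1, Chrd and Fstl3. That is 3 of the 9 genes, where 22.8% of all genes did so. In TPM, summed as deposited without TMM scaling, Chrd averaged 1.14 at day 1 and 1.29 at day 7 after injury. Its ranges overlapped, at 0.50 to 1.57 and 1.04 to 1.62 TPM. Fstl3 averaged 1.36 and 1.20 TPM, and Fstl1 44.6 and 132 TPM. Fstl3 and Inhba had log2 fold changes of 0.80 (SE 0.33, FDR 0.0896) and 1.01 (SE 0.54, FDR 0.182). Day 1 injured replicate 2 held 112 CPM of Inhba, where replicates 1 and 3 held 42.8 and 31.4 CPM, and without it both genes were called, at 1.11 (FDR 0.0436) and 1.75 (FDR 0.0398).

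The effect of injury against the contralateral knee was then compared between the days. It was larger at day 7 for Fstl1 by 2.41 on the log2 scale (SE 0.33, FDR 0.000358, edgeR), the only one of the 9 genes called, where 3.53% of all 21262 genes were called higher. Over all genes 750 were higher and 52 lower, or 252 and 94 with library totals alone. The difference was 1.94 for Inhba (SE 0.74, FDR 0.181), 1.12 for Chrd (SE 0.38, FDR 0.120) and 0.72 for Fstl3 (SE 0.47, FDR 0.486). Without day 1 injured replicate 2, Inhba was called too, at 2.69 (FDR 0.0489).

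Levels of markers of other cells also differed between the groups at day 7. The 12 markers of synovial and connective tissue fibroblasts summed to 26458, 27651 and 31166 CPM in the injured libraries and to 2287 to 4265 CPM in the naïve and 2215 to 4600 CPM in the day 7 contralateral ones, with 7 of 12 called higher, where 10.4% of all genes were, and none lower. Col3a1 was the most abundant, at 21686 to 24297 CPM in the injured libraries, a collagen that is found in many connective tissues. The osteoblast and osteocyte markers summed to 47712 to 55441 CPM, of which Col1a1 held 46982 to 54701 CPM, with 2 of 9 called higher than in naïve libraries and 2 lower. In the day 7 contralateral libraries they summed to 53049, 16293 and 22515 CPM, so that replicate 1 lay within the injured range. Of the endothelial and of the pericyte and smooth muscle markers 4 of 7 each were called higher, while 5 of 8 erythroid and 4 of 7 adipocyte markers were lower. The macrophage markers summed to 2243 to 2982 CPM in naïve and 2334 to 2883 CPM in injured libraries, and the osteoclast markers to 457 to 815 and 1054 to 1183 CPM. In the day 7 contralateral libraries the osteoclast markers summed to 727, 1123 and 1041 CPM and overlapped with the injured ones. The part of these cells in the changes of Fstl1, Inhba, Chrd and Fstl3 was not tested.

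**Figure D4:**
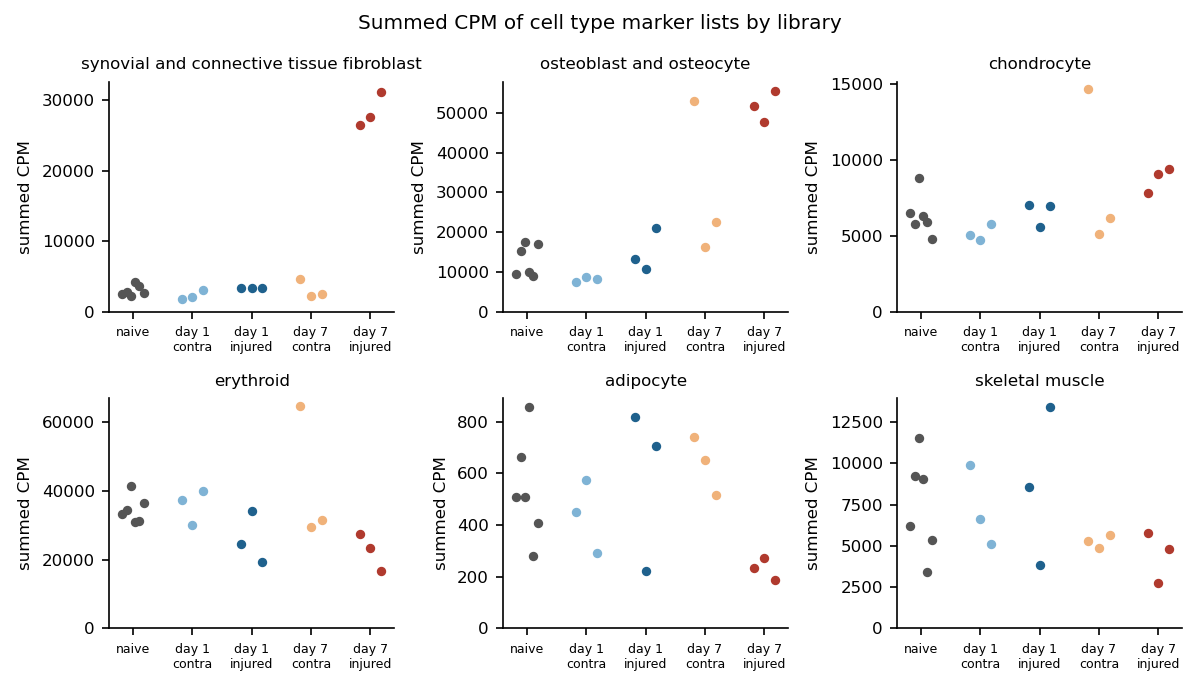
Summed CPM (linear axis from 0) of 6 lists of cell type markers in each of the 18 libraries by group. The fibroblast sum is 26458 to 31166 CPM in the day 7 injured libraries and at most 4600 CPM elsewhere. Replicate 1 of the day 7 contralateral group has the highest chondrocyte sum, most of it Col2a1, and the highest erythroid sum.

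The rest of the pathway was read from lists of genes in the day 7 injured against naïve comparison, in which 10.4% of all genes rose and 6.11% fell. The list of other extracellular antagonists includes genes that are not plain antagonists of BMPs, such as Kcp. Of its 10 tested genes, 4 rose and 1 fell. Kcp (kielin/chordin-like protein) rose by a log2 fold change of 2.32 (SE 0.27), Nbl1, a DAN family antagonist, by 2.10 (SE 0.18), Bmper, which binds BMPs, by 1.66 (SE 0.25) and Twsg1 (twisted gastrulation, a partner of chordin) by 1.23 (SE 0.08), with FDRs of at most 0.000159 in edgeR's test. Sost (sclerostin), an osteocyte product that antagonises Wnt signalling, fell by 0.95 (SE 0.22, FDR 0.00488). Nbl1 measured 29.8 to 52.5 CPM in naïve and 156 to 191 CPM in injured libraries. Against contralateral libraries these 4 genes also rose and Sost fell by 1.54, with 56.7 CPM of Sost in contralateral replicate 1 and 17.1 and 27.1 CPM in replicates 2 and 3. Without replicate 1 Sost fell by 0.92 (FDR 0.0336, edgeR), and the 4 genes rose by 1.26 to 2.41.

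Both tested proteinases that cleave chordin rose. Bmp1 measured 64.7 to 84.6 CPM in naïve and 200 to 254 CPM in injured libraries (log2 fold change 1.58, SE 0.11, FDR 1.12e-07), and Tll1 2.12 to 4.46 and 6.01 to 6.49 CPM (1.08, SE 0.28, FDR 0.00998). For both genes the injured libraries were above all naïve ones. Both were also higher than in the contralateral libraries, by 1.26 and 1.79, and by 1.31 and 1.76 without contralateral replicate 1.

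Of 14 BMP and GDF ligands tested, 3 rose and none fell. Gdf5, a factor of joint formation, was at 0.12 to 0.56 CPM in naïve and at 3.93 to 6.8 CPM in injured libraries, a log2 fold change of 3.81 (SE 0.32, FDR 5.16e-07, edgeR). Gdf7, from 2 to 5 counts in naïve and 17 to 24 in injured libraries, and Bmp15, from 1 to 12 and 7 to 32 counts, were called at levels too low for a firm fold change. Bmp2 and Bmp4, with log2 fold changes of 0.18 (SE 0.23) and 0.51 (SE 0.21), were not called. Among 6 other activin-type ligands, Gdf11 and Inhbb rose by 0.67 (SE 0.13) and 0.61 (SE 0.21), and neither was called against contralateral libraries, with or without contralateral replicate 1.

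Of 15 receptors and co-receptors 6 rose and none fell. The largest changes were those of the type I receptors Acvr1 at 1.31 (SE 0.11), Bmpr1b at 1.19 (SE 0.27) and Bmpr1a at 1.02 (SE 0.11) and of the co-receptor Rgma at 0.68 (SE 0.17), with FDRs from 7.29e-07 to 0.00716 in edgeR's test. Of 8 Smads, Smad1, Smad5 and Smad3 rose by 1.07 (SE 0.09), 0.71 (SE 0.07) and 0.60 (SE 0.10). Against contralateral libraries, where 9.33% of all genes rose, 8 receptors and, of the Smads, Smad1 (0.85, FDR 5.18e-05, edgeR) were called higher. Without contralateral replicate 1 there were 9 receptors and 2 Smads, Smad1 (0.99) and Smad5 (0.69).

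Of 11 BMP-responsive genes 2 rose, where 10.4% of all genes did: Msx1 by 0.70 (SE 0.23) and Id3 by 0.64 (SE 0.15), and none fell. Id1, often used as a readout of BMP signalling, measured 11.8 to 18.7 CPM in naïve and 14.2 to 17.3 CPM in injured libraries, a log2 fold change of 0.21 (SE 0.19, FDR 0.437, edgeR). Against contralateral libraries 0 of the 11 genes were called, with or without contralateral replicate 1. There Id3 had a log2 fold change of -0.02, or 0.51 (FDR 0.0876, edgeR) without that replicate. Msx1 had 0.30, or 0.73 (FDR 0.101, edgeR) without it. The median log2 fold change of these genes was 0.35 against naïve and 0.08 against contralateral libraries, or 0.24 without that replicate.

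**Figure D5:**
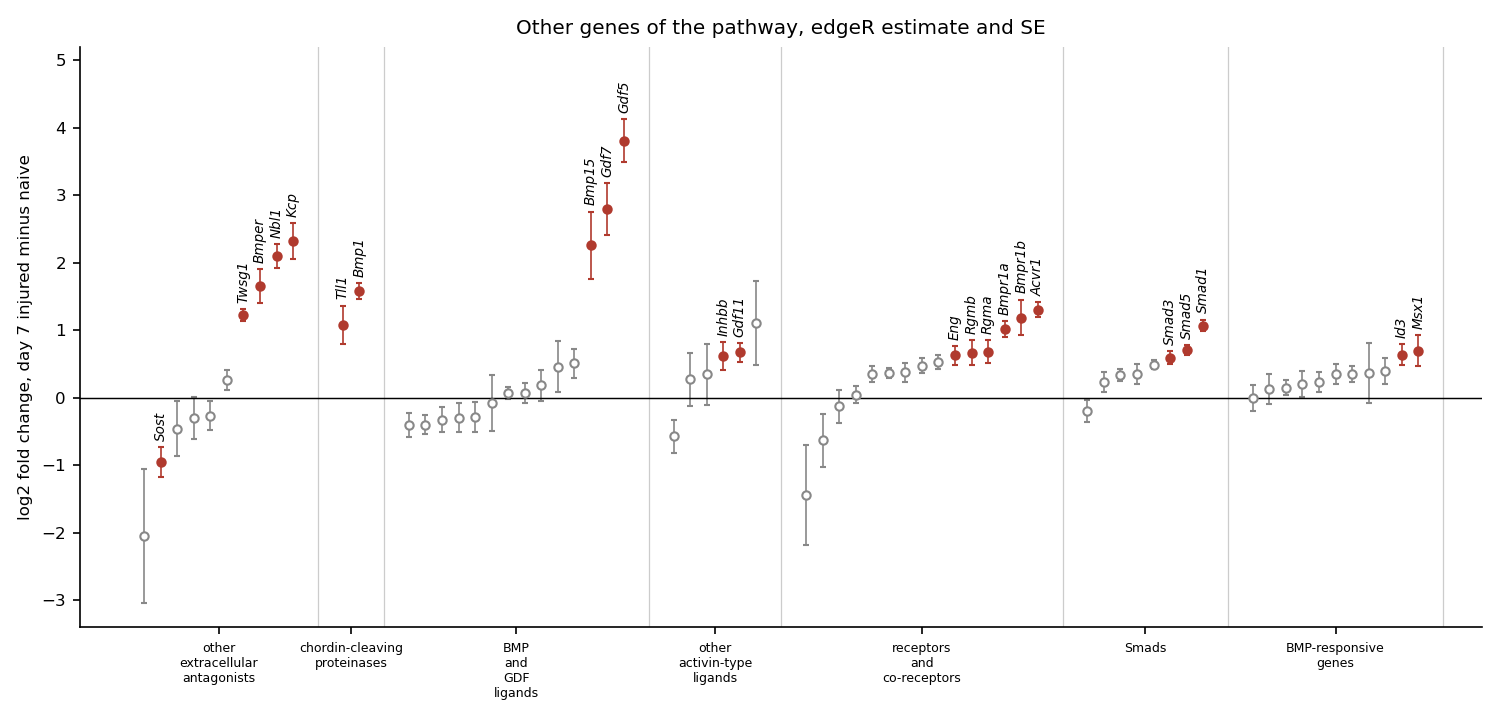
Log2 fold change of the other genes of the pathway between day 7 injured and naïve libraries, as edgeR's estimate with 1 SE, by list; filled red points were called and are named, open grey points were not. Gdf5 has the highest value, 3.81, and Sost at -0.95 is the only gene called lower.

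Over the 18 libraries, the protein-coding genes whose log2 CPM was most like that of Fstl1 were Tmem45a (Pearson r = 0.995) and Calu (0.991), and without the 3 day 7 injured libraries the values were 0.948 and 0.951. For Chrd they were Itgbl1 (0.960, and 0.872 without these libraries) and C1s1 (0.954, and 0.827). For Inhba they were Ereg (0.961, and 0.954) and Uap1 (0.958, and 0.930), and for Fstl3 Pgm3 (0.926, and 0.846) and Efemp2 (0.925, and 0.864). The genes most like Fst were Ptges and Sdc4, like Chrdl1 Mga and Pcgf3, like Chrdl2 Tmod2 and Klf9, like Grem1 Nnat and Senp7 and like Nog Atf5 and Ghdc, with r from 0.826 to 0.947. These values describe libraries that share groups and depth and were chosen as the highest of all genes.

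The 9 genes did not vary as 1 group between libraries. Fstl1 and Inhba had r = 0.761 over the 18 libraries and 0.665 over the 15 without day 7 injured ones, and Fstl1 and Fstl3 had 0.814 and 0.642. Chrd and Fstl1 had 0.806 over all libraries but -0.177 over the 15, and Chrd and Inhba 0.337 and -0.623. Chrd and Chrdl2 had 0.728 and 0.891.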

How the data were processed

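The authors trimmed the reads (Trimmomatic 0.39), pseudo-aligned them with Kallisto 0.46.1 to the mouse GRCm38 transcriptome and deposited estimated counts, TPM and effective lengths per transcript, with no further normalization. The labels name GRCh38, but the identifiers are those of mouse. Of 137436 transcripts, 135107 (98.3%) matched the GENCODE annotation of GRCm38 without their version, and the 2329 others, with 0.667% to 3.90% of a library's counts, were left out. Estimated counts were summed per gene and rounded, and deposited TPM were summed per gene.

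EdgeR 4.0.16 (R 4.3.3) was used with TMM scaling, its filter on low counts and a mean per group. Comparisons without the day 7 contralateral group used 15 libraries, the others 18. DESeq2 1.42.0, limma-voom (limma 3.58.1) and other settings were alternatives. The tests were tried on simulated counts. With 200 genes changed 3-fold, 150 were recovered against naïve, 131 against contralateral, 137 between the injured days and 114 for the difference of effects. Unchanged genes called were 3, 3, 2 and 6 in these comparisons. The study removed 1 library for low mapping and does not name it, and its step for libraries from the same pool of mice could not be repeated, since the labels do not identify the pools. Pathway lists without day 7 contralateral replicate 1 were added after seeing the data. Log2 CPM for correlations used a prior count of 2. All 9 members were described, of each pathway list up to 4 called genes with the largest change against naïve, and of each member the 2 most correlated protein-coding genes. Sost, Bmp2, Bmp4 and Id1 were named after their values were seen. Members and lists were chosen with earlier results of these data known.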

Additional observations from a re-analysis of the deposited data

Results flagged for a closer look

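Among the 6 naïve libraries, replicate 5 held 86.7 CPM of Inhba, while the other 5 held 29.3 to 41.3 CPM, a gap of 0.79 of the group's range. In the same library Fstl1 was at 244 CPM, the highest of the naïve libraries, and the adipocyte and skeletal muscle markers, at 281 and 3419 CPM, were the lowest of them. Whether these go with the level of Inhba by cause was not tested. Of the 22 naïve groups of values examined in this way, for the 9 genes and the 13 marker lists, 1 stood out, and chance gives about 1 in 20.

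The effect of injury on Fstl1 differed between day 7 and day 1, by 2.41 on the log2 scale, as tested by the interaction contrast. At day 7 the injured libraries held 979, 1132 and 1269 CPM and the contralateral ones 152 to 169 CPM, whereas at day 1 they held 192 to 234 and 120 to 227 CPM.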

How the results depend on the processing

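Fstl1 was called in each of the 4 comparisons of day 7 injured libraries, and Chrd in the 3 direct ones, under all alternatives run. Log2 fold changes of Chrd ran from 1.15 to 1.67 against naïve, 1.41 to 1.94 against contralateral and 0.86 to 1.49 against day 1 injured libraries. Scaling by library totals alone called 5824 genes against naïve, 6835 between the injured days and 346 for the difference of effects. It called 1 of the 9 genes, Grem1, lower against naïve and between the days, and 3 higher against contralateral. Nog then had log2 fold changes of -0.12, -0.044 and -0.28 against naïve, contralateral and day 1 injured libraries, and Chrdl1, Chrdl2 and Fst -0.083, -0.22 and -0.15 against day 1 injured ones. For the difference of effects Chrdl2 and Fst had -0.14 and -0.10, and with average transcript length as an offset -0.059 and -0.28. Inhba had 0.082 at day 1 against contralateral with library totals. The limit on FDR alone called 6291 genes against naïve and 5160 between the days. The stricter FDR limit called 1895 genes between the days and 344 for the difference, and 2 of the 9 genes against contralateral, where the length offset called 3. DESeq2 called 15 genes for day 1 injured against naïve, 8 for day 7 contralateral and 2 for day 1 contralateral libraries. The cause of these changes was not tested beyond the shift of the median under library totals.

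On leaving out 1 library at a time, 2 to 4 of the 9 genes were higher against contralateral and 2 to 4 between the days. For the difference of effects 402 genes (without day 7 injured replicate 3) to 962 genes (without day 7 contralateral replicate 1) and 1 to 2 of the 9 were called. Ranges of the log2 fold change that crossed 0 were -0.26 to 0.53 for Nog against contralateral and -0.24 to 0.71 for Chrdl2 between the days. For the difference of effects they were -0.75 to 0.043 for Nog, -0.40 to 0.55 for Chrdl2 and -0.10 to 0.33 for Fst. At day 1 they were -0.035 to 0.42 for Chrd and -0.20 to 0.88 for Inhba against naïve, and -0.76 to 0.73 for Inhba and -0.0020 to 0.84 for Fstl3 against contralateral. No paired analysis was possible because the labels do not say which libraries share mice. The replicate numbers used here follow the order of the samples within each group and were not taken to pair libraries between groups. Low counts limit what can be said of Nog and Chrdl2, with as few as 18 and 5 counts per library.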

Other observations

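In each of 3 groups 1 library was extreme for the same 6 of the 9 genes. The share of all genes placed like this was not computed, so whether 6 of 9 is unusual cannot be said. In groups of 3 libraries a given library is often at one end. Day 1 contralateral replicate 3 was also highest for Nog and Fst, and day 1 injured replicate 2 lowest for Chrdl1. In naïve replicate 5, day 1 contralateral replicate 3 and day 1 injured replicate 2, Inhba, Fstl1 and Fstl3 were at their highest and Grem1, Chrd and Chrdl2 at their lowest level within the group. Inhba was at 86.7, 112 and 112 CPM in these libraries, Fstl1 at 244, 227 and 234 CPM, and Fstl3 at 2.86, 3.67 and 4.07 CPM. Grem1 was at 8.75, 8.95 and 10.7 CPM, Chrd at 2.15, 2.03 and 2.16 CPM, and Chrdl2 at 0.36, 0.28 and 0.25 CPM. The adipocyte markers (281, 293 and 221 CPM) and the skeletal muscle markers (3419, 5090 and 3843 CPM) were also at their lowest within each group, as were 8 of 8 single muscle and 6 of 7 single adipocyte markers. Some markers of other lists were at their highest in all 3 libraries. Pdpn, of the fibroblast list, was at 45.5, 54.1 and 47.5 CPM, against 5.91 to 15.2 CPM in the other libraries of these groups. Prg4, of the chondrocyte list, was at 1409, 1649 and 1775 CPM, against 373 to 892 CPM, and Postn at 305, 209 and 207 CPM, against 66.8 to 168 CPM. In all, 2 of 12 fibroblast markers were highest and 4 lowest in these libraries, and 1 of 14 chondrocyte markers was highest and 4 lowest. Of 9 macrophage markers 2 were highest, Adgre1 (91.0, 78.1 and 73.6 CPM) and Cd68 (58.7, 61.0 and 55.1 CPM), and 1 was lowest. Of the osteoblast and osteocyte markers 4 of 9 and of the osteoclast markers 3 of 7 were lowest. Of the neutrophil, B cell, endothelial and pericyte lists 1 marker each was lowest, and of the erythroid and proliferation lists none was at either end. The part of these cells in the levels of the 6 genes was not tested.

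The day 7 contralateral replicate 1, which stood apart in its marker levels, had the highest Nog (2.57 CPM) and the lowest Chrdl1 (16.2 CPM) and Inhba (18.9 CPM) of all 18 libraries.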
